A study of Mus musculus with 12 samples.

Results

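The ligands CD80, CD86, PD-L1 and PD-L2 and the receptors CD28 and ICOS, which carry co-signals that a T cell receives beside its antigen receptor, were followed as transcripts in CD8+ T cells taken from tumours. Their probes are Cd80, Cd86, Cd274 (PD-L1), Pdcd1lg2 (PD-L2), Cd28 and Icos, 6 of the 773 genes of the table, and all 6 were measured in all 12 samples. The 6 were chosen by symbol, and the choice was made with results of these same samples known. The differences between groups given for them are therefore a description, and no p-value is given for any of the 6. The cells came from MC38 tumours, a mouse colon carcinoma line, grown in C57BL/6J mice. They were enriched for CD45 and then sorted for CD8, and their lysates were read on a NanoString nCounter panel for immune exhaustion, which counts RNA molecules with barcoded probes and no amplification.

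The 4 groups of 3 samples are called Nontreated, SRT, CRT and SRT-like. Nontreated is the control, and the other 3 groups are modes of radiotherapy whose abbreviations the labels do not spell out. The growth protocol gives 20 Gy, begun at tumours of 40 to 100 mm3, and is worded alike for all samples, Nontreated included. The labels give no dose per fraction, no interval between irradiation and sorting and no mouse age, and they leave unstated whether each sample came from its own mouse. P-values for other genes below therefore measure the spread between these samples only, which may be technical. The model is limited to 1 implanted tumour line. Replicates were numbered here in the order of the samples, so a number pairs nothing.

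CD28 is held by most resting mouse T cells and ICOS appears after activation. Both carry tail motifs that recruit PI3K. CD80 and CD86 are best known on dendritic cells, macrophages and B cells, where they engage CD28 or, with higher affinity, the inhibitory receptor CTLA-4, but activated T cells can make them too. PD-L1 and PD-L2 are the ligands of PD-1. PD-L1 is made by many cell types, T cells among them, and is induced by interferons. CD80 can also bind PD-L1 on the same membrane. The ligand of ICOS is ICOSL. The panel counts RNA and gives no value for protein on the cell surface.

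In the RefSeq annotation of GRCm38.p6 these genes lie in 3 neighbourhoods, which is why they are grouped in pairs below. Cd28 (chr1:60746388-60773359) and Icos (chr1:60960773-61000322) are 187 kb apart with Ctla4 between them. Cd86 (chr16:36568956-36666158) and Cd80 (chr16:38457430-38495958) share a chromosome at a distance of 1791 kb. Cd274 (chr19:29362107-29388095) and Pdcd1lg2 (chr19:29410919-29472927) lie 22.8 kb apart. The positions of the probes within these genes were not used here.

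The windows before the annotated starts are shown because neighbours and partners among these ligands differed in their values between groups. The RefSeq promoter table of GRCm38.p6 matched 3 of the 6 symbols, not Cd86, Cd28 and Icos. Each line gives the 250 bases before the start used in that table, 5′ to 3′ on the plus strand, and capitals mark a match to an interferon response type motif. The windows are chr16:38458683-38458932 (+) for Cd80, chr19:29367188-29367437 (+) for Cd274 and chr19:29410669-29410918 (+) for Pdcd1lg2. The starts used for Cd80 and Cd274 lie inside the gene spans given above, so these windows belong to 1 transcript start each.
Cd80: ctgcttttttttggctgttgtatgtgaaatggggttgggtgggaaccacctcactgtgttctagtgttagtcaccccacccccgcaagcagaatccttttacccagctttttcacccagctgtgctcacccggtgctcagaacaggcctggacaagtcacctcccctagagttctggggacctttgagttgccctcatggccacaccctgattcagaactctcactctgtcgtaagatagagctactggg
Cd274: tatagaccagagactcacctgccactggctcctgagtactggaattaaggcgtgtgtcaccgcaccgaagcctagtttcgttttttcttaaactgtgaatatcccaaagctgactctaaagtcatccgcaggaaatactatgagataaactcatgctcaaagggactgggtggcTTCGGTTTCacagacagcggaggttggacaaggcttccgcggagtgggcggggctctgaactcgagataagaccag
Pdcd1lg2: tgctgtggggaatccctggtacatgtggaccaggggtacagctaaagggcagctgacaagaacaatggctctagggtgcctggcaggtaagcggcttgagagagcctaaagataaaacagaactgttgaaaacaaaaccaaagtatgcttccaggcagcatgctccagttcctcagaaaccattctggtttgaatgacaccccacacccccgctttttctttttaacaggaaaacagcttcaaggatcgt

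Both strands of each window were searched for GAAANNGAA, the core of an interferon response type element, and for TTCNNNGAA, the core of a STAT type element. Cd274 held 1 match to the first, on the minus strand, printed above as TTCGGTTTC, from 76 to 68 bases before the start. Cd80 and Pdcd1lg2 held none, and no window of the 3 held the second. Of the 32851 promoter windows of the table, 2342 (7.13%) held the first motif and 2306 (7.02%) the second. A match is a run of letters and not a known binding site, and no match says only that these letters are not in this window.

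Values are log2 normalized counts as the authors deposited them, and 2 raised to a value was a whole multiple of 1 step per sample, so the molecules counted could be recovered. Totals ran from 118694 to 467904 molecules per sample, lowest in Nontreated replicate 3 and highest in Nontreated replicate 2. Each gene of the 6 exceeded the background level in 12 of 12 samples. That level is the mean plus 2 SD of 10 probes, which are for genes of other tissues and for the virus LCMV. Levels are compared between samples for 1 gene and not between genes, because probes differ in how well they capture RNA.

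Cd80 had the widest range of the 6, spanning 3.09 log2 units over the 12 samples. In Nontreated its log2 values were 7.17, 5.46 and 5.86, and in SRT they were 7.63, 8.14 and 8.22. In CRT they were 7.69, 7.42 and 7.24, and in SRT-like 8.04, 8.56 and 8.29. Every irradiated sample was above every control, but the margin between CRT replicate 3 and Nontreated replicate 1 was small. Nontreated replicate 1 stood apart above the other 2 controls and set most of the control spread. The recovered Cd80 counts were 230, 84 and 29 molecules in the controls, and the 29 carry an exact Poisson interval of 19.4 to 41.6, which covers counting error only. The irradiated samples held from 88 to 427 molecules. Nontreated replicate 2 was the deepest library and still counted only 84 Cd80 molecules, fewer than any irradiated sample.

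The Cd80 means were 8.30 ± 0.26 in SRT-like, 8.00 ± 0.32 in SRT, 7.45 ± 0.23 in CRT and 6.16 ± 0.89 in Nontreated (SD, n = 3 each). In that order the samples of SRT-like and SRT overlapped, as did those of SRT and CRT, whereas CRT and Nontreated did not. Relative to Nontreated the log2 difference was 2.13 ± 0.38 in SRT-like, 1.83 ± 0.38 in SRT and 1.29 ± 0.38 in CRT (SE of the limma fit), or 4.39-fold, 3.57-fold and 2.44-fold. For the mean of the 3 modes it was 1.75 ± 0.31, or 3.37-fold. Without Nontreated replicate 1 the difference of the modes together was 2.25, and without Nontreated replicate 2 it was 1.40.

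Cd86, the partner ligand of Cd80, was the steadiest of the 6 among the controls. Its log2 values were 6.90, 7.00 and 7.00 in Nontreated and 7.23, 7.61 and 7.58 in SRT. They were 7.91, 8.08 and 7.85 in CRT and 7.44, 7.29 and 7.61 in SRT-like. All 9 irradiated samples lay above all 3 controls, and all 3 CRT samples lay above every other sample. The means were 7.95 ± 0.12 in CRT, 7.47 ± 0.21 in SRT, 7.45 ± 0.16 in SRT-like and 6.97 ± 0.06 in Nontreated (SD, n = 3 each), and SRT and SRT-like overlapped. The log2 difference from Nontreated was 0.98 ± 0.17 in CRT, 0.50 ± 0.17 in SRT and 0.48 ± 0.17 in SRT-like, or 1.97-fold, 1.42-fold and 1.40-fold. For the modes together it was 0.66 ± 0.14, or 1.58-fold. The recovered counts ran from 64 to 293 molecules.

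**Figure D1:**
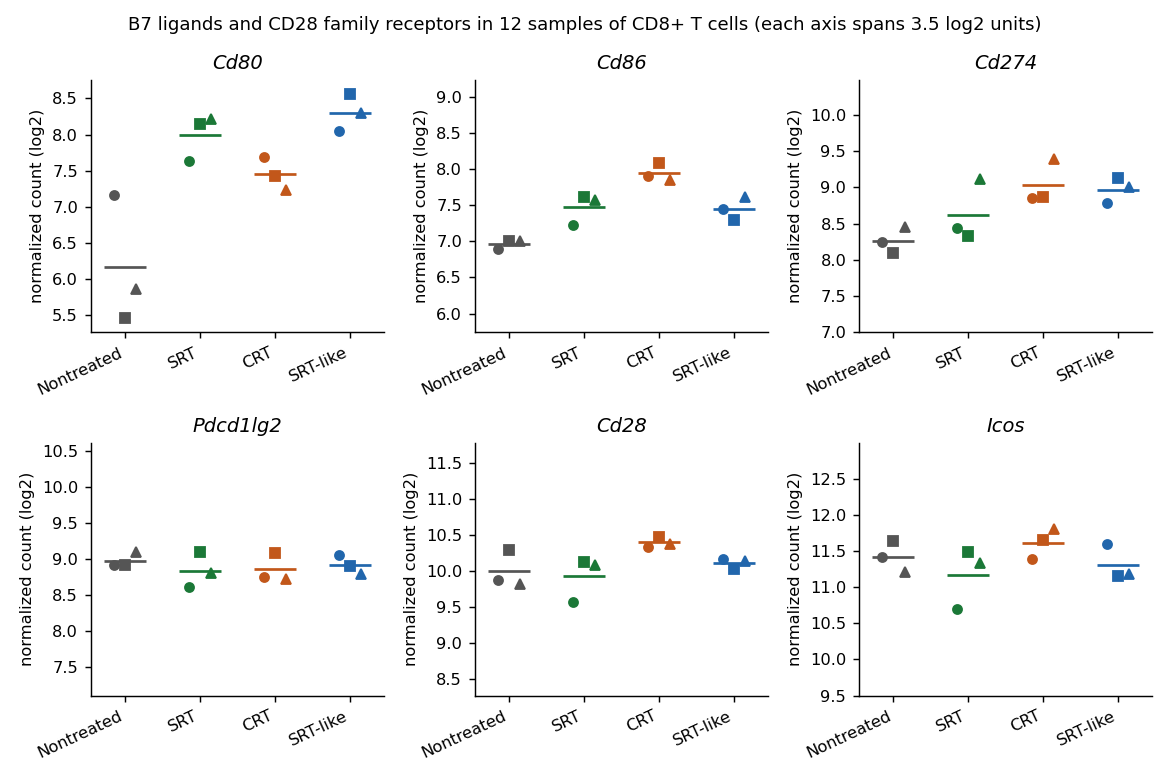
Log2 normalized count of each gene in every sample by group, with each axis spanning 3.5 log2 units. The circle, square and triangle are replicates 1, 2 and 3 of a group and the line is the group mean. All irradiated samples lie above all controls for Cd80 and Cd86, and the groups overlap throughout for Pdcd1lg2 and Icos.

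The order of the modes thus differed between the CD28 ligands, with CRT lowest of the 3 for Cd80 and highest for Cd86. The difference Cd80 minus Cd86 within a sample does not depend on the sample's scaling factor, and its change between samples can be read although its level cannot. It was 0.53 ± 0.12 in SRT and 0.85 ± 0.36 in SRT-like, against -0.50 ± 0.25 in CRT (SD, n = 3 each). The CRT samples ran from -0.66 to -0.22 and lay below all SRT samples, the lowest of which was 0.40, and below all SRT-like samples, the lowest of which was 0.60. The controls ran from -1.54 to 0.27, with a mean of -0.80 ± 0.95, so they overlapped CRT. This ratio was noticed after the values had been seen and was not tested.

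Cd274, for PD-L1, had log2 values of 8.24, 8.10 and 8.45 in Nontreated and of 8.43, 8.32 and 9.12 in SRT. It had 8.86, 8.87 and 9.39 in CRT and 8.78, 9.13 and 9.00 in SRT-like. All CRT and all SRT-like samples lay above the controls, whereas in SRT only replicate 3 did. The means were 9.04 ± 0.30 in CRT, 8.97 ± 0.18 in SRT-like, 8.62 ± 0.43 in SRT and 8.26 ± 0.18 in Nontreated (SD, n = 3 each), and each group overlapped the next in that order. The log2 difference from Nontreated was 0.78 ± 0.24 in CRT and 0.71 ± 0.24 in SRT-like, or 1.71-fold and 1.64-fold. In SRT it was 0.36 ± 0.24, with a 95% interval of -0.18 to 0.90. The recovered counts ran from 174 to 713 molecules.

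Pdcd1lg2, for PD-L2, varied least of the 6, by 0.49 log2 units over all 12 samples. Its log2 values were 8.91, 8.91 and 9.10 in Nontreated, then 8.61, 9.10 and 8.80 in SRT and 8.75, 9.09 and 8.72 in CRT. They were 9.06, 8.90 and 8.79 in SRT-like. All 4 groups overlapped. The means were 8.97 ± 0.11 in Nontreated, 8.92 ± 0.14 in SRT-like, 8.85 ± 0.20 in CRT and 8.84 ± 0.24 in SRT (SD, n = 3 each). The difference of the modes together from Nontreated was -0.10 ± 0.15, with a 95% interval of -0.43 to 0.22. The interval includes a small increase as well as a decrease.

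Within a sample, Cd274 minus Pdcd1lg2 was -0.71 ± 0.09 in Nontreated and -0.21 ± 0.54 in SRT. It was 0.19 ± 0.45 in CRT and 0.06 ± 0.29 in the SRT-like group (SD, n = 3 each). All CRT samples, from -0.22 upward, and all SRT-like samples, from -0.28 upward, were above the highest control at -0.65. The SRT samples ran from -0.77 to 0.31 and overlapped the controls. The balance of these PD-1 ligand transcripts, whose genes are neighbours, thus lay further toward PD-L1 in these 2 modes, a comparison made after the values had been seen and not tested.

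Cd28 had log2 values of 9.88, 10.29 and 9.82 in Nontreated and of 9.57, 10.12 and 10.09 in SRT. It had 10.34, 10.48 and 10.37 in CRT and 10.16, 10.02 and 10.14 in SRT-like. All 3 CRT samples were above the 9 others, though CRT replicate 1 exceeded Nontreated replicate 2 by little. The means were 10.40 ± 0.07 in CRT, 10.11 ± 0.07 in SRT-like, 10.00 ± 0.25 in Nontreated and 9.93 ± 0.31 in SRT (SD, n = 3 each), and the last 3 overlapped one another. The log2 difference from Nontreated was 0.40 ± 0.19 in CRT, 0.11 ± 0.19 in SRT-like and -0.07 ± 0.19 in SRT. The recovered counts ran from 450 to 2380 molecules, so counting error was small for this gene.

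Icos had log2 values of 11.42, 11.64 and 11.21 in Nontreated and of 10.69, 11.49 and 11.34 in SRT. It had 11.39, 11.66 and 11.80 in CRT and 11.60, 11.15 and 11.19 in SRT-like. The 4 groups overlapped, and SRT replicate 1 was the lowest sample. The means were 11.62 ± 0.21 in CRT, 11.42 ± 0.22 in Nontreated, 11.31 ± 0.25 in SRT-like and 11.18 ± 0.42 in SRT (SD, n = 3 each). The difference of the modes together was -0.05 ± 0.20, with a 95% interval of -0.49 to 0.38. Icos minus Cd28 within a sample was 1.43 ± 0.10 in Nontreated and 1.25 ± 0.12 in SRT. It was 1.22 ± 0.19 in CRT and 1.20 ± 0.21 in the SRT-like group (SD, n = 3 each), and the 4 groups overlapped as well.

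**Figure D2:**
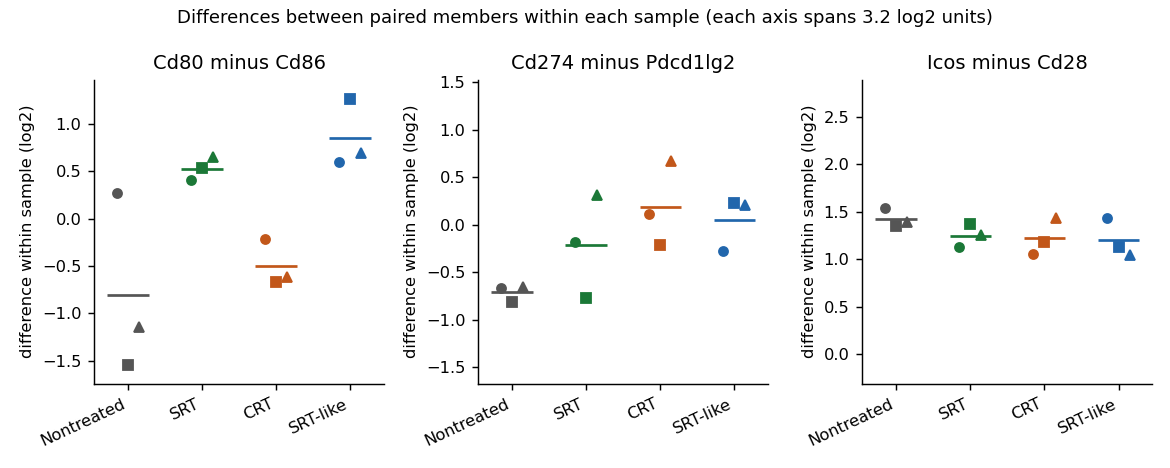
Difference in log2 normalized count between paired genes within each sample, by group, with each axis spanning 3.2 log2 units. The circle, square and triangle are replicates 1, 2 and 3 and the line is the group mean. Cd80 minus Cd86 lies below 0 in the 3 CRT samples and above 0 in the SRT and SRT-like samples, and Cd274 minus Pdcd1lg2 is lowest in the 3 controls and 1 SRT sample.

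**Figure D3:**
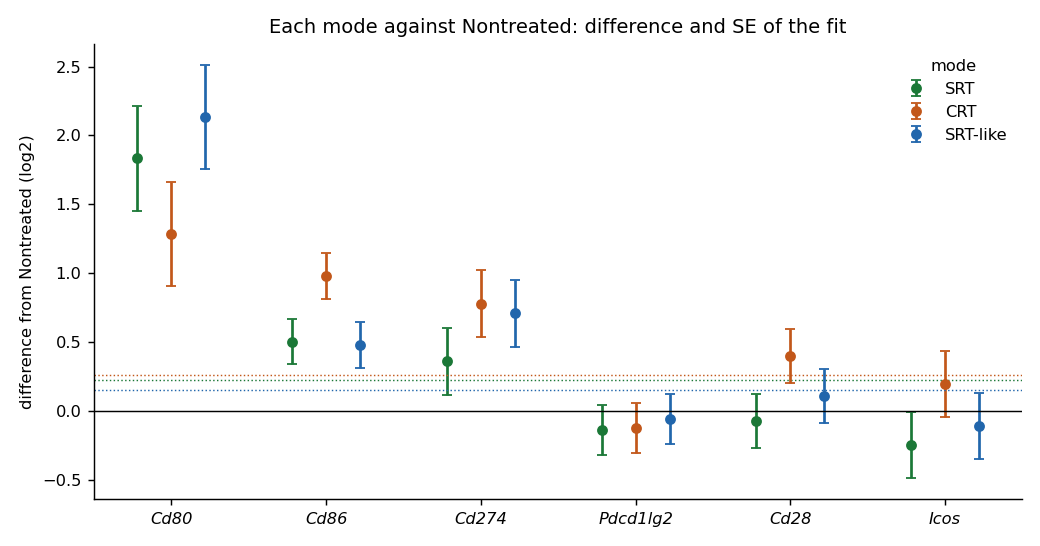
Log2 difference of each mode from Nontreated for the 6 genes, with the SE of the limma fit as the bar. The dotted lines give the median difference of all 773 genes in each mode. Cd80 has the largest difference of the 6 in every mode, and Pdcd1lg2 has a difference below 0 in every mode. All modes share the same 3 control samples.

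Against the whole panel, the choice of the 6 used these contrasts, so the counts that follow are given and nothing is read from them. With limma and Benjamini-Hochberg adjustment over 773 genes, 2 of the 6 passed the threshold of 0.05 for the modes together (Cd80 and Cd86), where 3.10% of the panel did. In CRT 1 of the 6 passed (Cd86), against 3.10% of the panel, and in SRT-like 1 of the 6 (Cd80), against 0.647%. For the modes together, Cd80 passed in 15 of 19 other settings and Cd86 in only 10 of 19. Cd86 in CRT passed in 16 of 20 other settings, and Cd80 in SRT-like in only 5 of 20. In SRT 0 of the 6 and 0% of the panel passed, with 84 genes of the panel at an unadjusted p under 0.05 and 2 genes past the threshold by voom on the recovered counts.

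All samples of the modes together lay above all controls for 2 of the 6 (Cd80 and Cd86) and for 4.66% of the panel. All SRT samples did so for the same 2 and for 10.9% of the panel. In CRT this held for 4 of the 6 (Cd80, Cd86, Cd274 and Cd28) and 15.4% of the panel, and in SRT-like for 3 of the 6 (Cd80, Cd86 and Cd274) and 13.2%. The median difference of the 6 was 0.38 for the modes together and 0.15 in SRT, against 0.59 in CRT and 0.30 in SRT-like. The medians of all 773 genes were 0.22, 0.22, 0.26 and 0.15 in the same order.

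The median of all 773 genes was thus higher after radiotherapy. Centring each sample on the median of all genes took 0.26 off the difference of the modes together, 0.27 off SRT, 0.32 off CRT and 0.18 off SRT-like. Centring on the median of probes above background, a setting added after seeing the data, took off 0.15, 0.05, 0.21 and 0.18 in the same order. Relative to these shifts the Cd80 difference of the modes together was 1.49 with the first centring and 1.61 with the second. For Cd86 these values were 0.40 and 0.51, for Cd274 0.36 and 0.47, and for Pdcd1lg2 -0.36 and -0.25. Cd274 in SRT went from 0.36 to 0.09 with the first centring and to 0.31 with the second. Cd80, Cd86 and Cd274 stayed above Nontreated in each mode in every other setting tried.

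For the receptors, Cd28 in CRT went from 0.40 to 0.08 with the first centring and to 0.19 with the second. The Cd28 difference of the modes together was -0.11 with the first and within 0.01 of 0 with the second, and in SRT-like it turned from 0.11 to -0.07 with either. Icos in CRT turned from 0.20 to -0.13 and -0.01. In SRT both receptors stayed below Nontreated under both centrings, as did Icos for the modes together and in SRT-like.

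Between the modes, 0 of the 6 passed the threshold in any of the 3 pairs, where 0% of the panel passed for SRT against CRT, 0% for SRT-like against CRT and 0% for SRT-like against SRT by limma. At an unadjusted p under 0.05 there were 51, 76 and 44 genes of the panel in these pairs, and voom called 0 in each. Cd80 was higher in SRT-like than in CRT by 0.85 ± 0.38, without overlap, and the 95% interval of 0.01 to 1.69 is wide. Cd86 was lower than in CRT by 0.48 in SRT (difference -0.48 ± 0.17) and by 0.50 in SRT-like (-0.50 ± 0.17), without overlap in either. Cd28 differed from CRT by -0.47 ± 0.19 in SRT and by -0.29 ± 0.19 in SRT-like, again without overlap. The share of the panel without overlap in these pairs was not determined, so nothing is read from it. With the first and second centring, Cd28 was at -0.42 and -0.31 in SRT against CRT, and at -0.14 and -0.26 in SRT-like against CRT. Cd86 was at -0.43 and -0.32 in SRT and at -0.36 and -0.47 in SRT-like, and Cd80 in SRT-like at 0.99 and 0.88. Between SRT-like and SRT the difference was 0.30 ± 0.38 for Cd80 (95% interval -0.54 to 1.14), -0.02 ± 0.17 for Cd86 (-0.39 to 0.34) and 0.35 ± 0.24 for Cd274 (-0.19 to 0.89), so differences of these sizes could not be resolved with 3 samples per group.

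Other co-signalling receptors and ligands, of the CD28 and B7 families, the TNF superfamily and further families, were read from a list of 14 genes, of which 13 were measured and 11 were above background in every sample of at least 1 group. Only Cd226 passed over the whole panel. It encodes DNAM-1, an activating receptor that competes with TIGIT for CD155, and it rose for the modes together by 0.62 ± 0.14 (limma, adjusted p = 0.0398), from 8.58 ± 0.23 in Nontreated to means of 9.18 to 9.22 in the modes. Its lowest irradiated value was 9.03 and its highest control value 8.72, so the groups did not overlap. After centring on the median of all probes the difference was 0.36 and no longer passed, and it passed in only 4 of 19 other settings. None of the list passed in a single mode, and the list's median difference was 0.27 for the modes together, 0.45 in CRT, 0.34 in SRT and 0.15 in SRT-like.

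The partners that complete these ligand and receptor pairs were picked after their values had been seen. Ctla4, the inhibitory receptor for CD80 and CD86, averaged 10.79 in Nontreated and 10.84 over the modes, a difference of 0.05 ± 0.15 (limma, adjusted p = 0.883). Pdcd1, which encodes PD-1, had a difference of -0.05 ± 0.20 (limma, adjusted p = 0.919). Icosl, the ligand of ICOS, had a difference of 0.27 ± 0.18 (limma, adjusted p = 0.515) on 20 to 97 molecules per sample.

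Of 40 genes of the signalling path below CD28 and ICOS, 27 were measured and 0 passed in any contrast with Nontreated by limma. The median difference of these 27 was 0.00 for the modes together, 0.06 in CRT, -0.06 in SRT and 0.02 in SRT-like, below the median of the whole panel in each. The smallest p-values for the modes together belonged to Nfatc2, a calcium-regulated transcription factor, at 0.41 ± 0.17 (limma, adjusted p = 0.262), and to Nfkb1, the p105 and p50 subunit of NF-kB, at -0.33 ± 0.17 (adjusted p = 0.426).

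Among 14 genes that restrain CD28, CTLA-4 or PD-1 signalling, 12 were measured, and 1 passed in CRT. Ptpn6, which encodes the phosphatase SHP-1, fell by 0.82 on the log2 scale in CRT (SE 0.19, limma, adjusted p = 0.0447), from 9.05 ± 0.16 in Nontreated to 8.23 ± 0.04 (SD, n = 3 each). For the modes together its difference was -0.56 ± 0.15 (adjusted p = 0.104). The CRT difference was -1.14 after centring on the median of all probes, and it passed in 9 of 20 other settings. The list's median difference was 0.03 for the modes together, 0.05 in CRT, -0.02 in SRT and 0.02 in SRT-like.

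Of 17 genes for interferon and JAK-STAT signals that induce B7 ligands, 8 were measured and 0 passed against Nontreated by limma, with list medians of 0.03 for the modes together, 0.10 in CRT, -0.03 in SRT and 0.01 in SRT-like. Stat3, which carries signals of IL-6 and IL-10, was at -0.37 ± 0.13 for the modes together (limma, adjusted p = 0.205).

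For each of the 6 genes the 3 probes with the highest Pearson correlation over the 12 samples were taken from the 494 other probes above background. The points share the sample's scaling factor and the group differences, so these values describe likeness and carry no test. Cd80 was most like Klf2, a transcription factor of T cell quiescence and trafficking (r = 0.90, rho = 0.87), then Ptpn18 (0.89, rho = 0.93) and the chemokine receptor Ccr1 (0.87, rho = 0.71). Without the 2 samples farthest from the Cd80 median the r with Klf2 was 0.75 and that with Ccr1 0.54. Within groups, as deviations from the group means, these 3 correlations were 0.53, 0.61 and 0.46.

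Cd86 was most like Chek1, a checkpoint kinase of DNA replication (r = 0.96, rho = 0.97), and the interferon-induced genes Oas1a (0.93, rho = 0.95) and Xaf1 (0.92, rho = 0.92). As deviations from the group means these were 0.81, 0.62 and 0.53. Cd274 was most like the MHC class I heavy chain genes H2-K1 (r = 0.95, rho = 0.93) and H2-D1 (0.93, rho = 0.92) and the interferon-induced Oas3 (0.90, rho = 0.90). These held within groups, with deviations correlated at 0.94, 0.84 and 0.82, and without the 2 farthest samples, at 0.91, 0.92 and 0.89. The class I probes could take up RNA of near-identical class I genes. The nearest genes of Cd80 and Cd86 did not coincide, and Cd80 and Cd86 themselves correlated at 0.47 over the samples and at -0.01 within groups.

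Icos was most like Cd28 (r = 0.83, rho = 0.78, and 0.84 as deviations from the group means). SRT replicate 1 was the lowest sample for both, and for Ctla4 and Pdcd1 as well, so this likeness is not shown to be particular to the pair. The next for Icos were Entpd1, the ectonucleotidase CD39 (0.80, rho = 0.74), and the cytokine gene Il16 (0.76, rho = 0.80). Without the 2 samples farthest from the Icos median, r was lower, at 0.63 with Cd28, 0.53 with Entpd1 and 0.71 with Il16. Cd28 was most like Tlr7, a sensor of single-stranded RNA (0.88, rho = 0.78), the PI3K adaptor Pik3ap1 (0.87, rho = 0.74) and Snw1 (0.87, rho = 0.81). For Pdcd1lg2, which varied little, the highest values were 0.65 with Sos2, 0.65 with Irak4 and 0.64 with Ccnc. They fell to between 0.44 and 0.52 without the 2 farthest samples, but as deviations from the group means they were 0.81, 0.76 and 0.83.

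The labelled cell type was checked against its own markers. Of 7 CD8 T cell markers 6 were measured, and all 6 were above background in 12 of 12 samples. On the log2 scale their summed level was 13.53 to 13.93 in Nontreated and 13.62 to 14.04 in SRT. It was 13.64 to 13.91 in CRT and 13.87 to 14.07 in SRT-like. Cd8a averaged 0.12 ± 0.13 above Nontreated over the modes and Cd8b1 0.14 ± 0.23 (limma, adjusted p = 0.700 and 0.792).

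Because CD80 and CD86 are also made by antigen-presenting cells, markers of those cells were read beside them. In these sorted bulk samples, a change in the number of cells carrying a transcript and a change in RNA per cell cannot be told apart. Of 21 macrophage and monocyte markers 9 were measured, and 7 were above background in every sample of a group. Csf1r and Cd14, which define these cells, exceeded background in 0 of 12 samples, while Cd68, Tyrobp, Cd33 and Ccr2 were so in 12. The 9 summed to 8.71 to 9.17 in Nontreated and 9.08 to 9.56 in SRT, then to 9.29 to 9.83 in CRT and 8.98 to 9.17 in SRT-like, so CRT lay above the controls. In CRT, where Cd86 was highest, all 9 had a positive difference, with a median of 0.65, and 0 passed by limma. In SRT all 9 were positive too (median 0.45), and in SRT-like 6 of the 9 were (median 0.28). Of the whole panel, 77.2% of genes had a positive difference in CRT, 70.6% in SRT and 64.7% in SRT-like. Cd68 was at 0.65 ± 0.18 in CRT (limma, adjusted p = 0.0949). Cd163, above background in 8 samples, was at 0.67 ± 0.25 for the modes together (limma, adjusted p = 0.216). Much of the sum came from Ccr2, which T cells also express. The part of these cells in the Cd86 values was not tested.

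Of 18 dendritic and antigen-presenting cell markers 10 were measured, and 9 were above background in every sample of at least 1 group. H2-Aa, Itgax and Ccr7 were above it in 12 of 12 samples and the others of the 9 in 10 or 11. Only Ciita, the master regulator of MHC class II, was so in 0. The summed level of the 10 was 11.11 to 11.81 in Nontreated and 11.44 to 11.62 in SRT, then 9.94 to 11.34 in CRT and 10.92 to 11.51 in SRT-like. Much of it came from the T cell and dendritic cell receptor Ccr7. Nontreated replicate 1, the control with the highest Cd80, had the highest sum of all 12 samples, with Ccr7 at 11.33. Its H2-Aa value of 8.86 was the highest of the controls but below 9.41 in CRT replicate 1 and 9.15 in SRT replicate 2. The 6 measured genes of MHC class II and its peptide loading, H2-Aa, H2-Ab1, H2-Eb1, H2-DMa, H2-DMb1 and H2-Ob, differed from Nontreated by 0.27 to 1.13 in SRT and by -0.24 to 0.75 in CRT. In SRT-like, where Cd80 was highest, they differed by -0.88 (H2-Aa) to 0.36 (H2-Ob). In CRT the H2-Aa values were 9.41, 8.72 and 6.84 beside Cd80 values of 7.69, 7.42 and 7.24. In SRT they were 8.57, 9.15 and 7.95 beside Cd80 values of 7.63, 8.14 and 8.22. In SRT-like they were 7.54, 7.44 and 7.24 beside 8.04, 8.56 and 8.29. The controls had 8.86, 8.19 and 7.80 beside 7.17, 5.46 and 5.86. The samples of a group thus kept the same order for Cd80 and H2-Aa in CRT only. H2-Aa is 1 gene of the list, and others differed from it in this. In CRT each other measured gene of the list kept the order of Cd80 too, and in SRT none did. In Nontreated only H2-DMb1, Itgax and Ccr7 kept it, and in SRT-like only H2-DMb1 and H2-Eb1. Of this list 0 passed by limma, with H2-Ob at 0.74 ± 0.22 (adjusted p = 0.129) and Itgax, for CD11c, at 0.52 ± 0.21 (adjusted p = 0.291) for the modes together. Itgax was at 0.81 ± 0.26 in SRT-like (adjusted p = 0.260). The part of dendritic cells in the Cd80 values was not tested.

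Of 10 B cell markers 7 were measured, and Ms4a1 and Cr2 were above background in 0 of 12 samples. They summed to 7.88 to 8.29 in Nontreated and 8.15 to 8.47 in SRT, then to 8.00 to 8.53 in CRT and 7.42 to 7.98 in SRT-like. Blk, a kinase of B cells, passed in CRT (limma, adjusted p = 0.0461) but was above background in only 2 of 12 samples and in no control, so its size of 1.25 ± 0.29 has little meaning. With values below background raised to it the difference was 0.43, and it passed in 3 of 19 other settings. Of 10 tumour and stroma markers only Cdh1 and Pecam1 were measured, with 0 calls and a summed level of 6.43 to 6.64 in Nontreated and 6.65 to 7.37 in SRT, then of 6.42 to 6.96 in CRT and 6.52 to 7.09 in SRT-like. Their differences for the modes together were 0.17 ± 0.31 and 0.36 ± 0.21 (limma, adjusted p = 0.816 and 0.448).

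**Figure D4:**
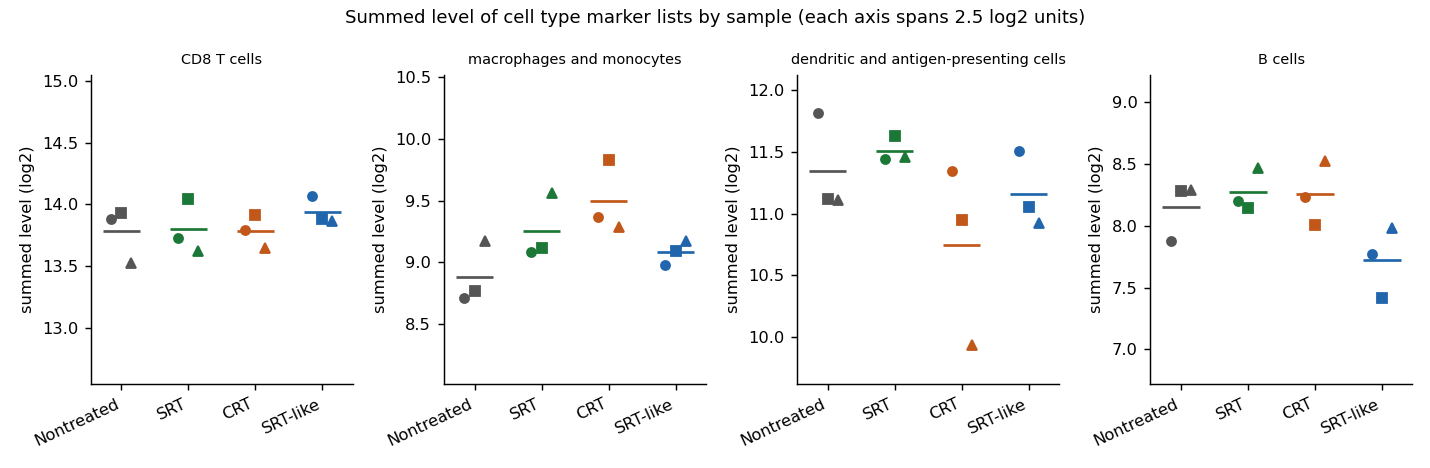
Log2 summed level of the measured markers of 4 cell types in each sample by group, with each axis spanning 2.5 log2 units. The circle, square and triangle are replicates 1, 2 and 3 and the line is the group mean. The macrophage list lies above the controls in all 3 CRT samples, and the B cell list has its lowest mean in SRT-like.

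The values of the 3 ligands that differed most were also followed through each other setting of scaling, low values, test and left-out sample. For the modes together, the Cd80 difference lay between 1.40 and 2.25, that of Cd86 between 0.40 and 0.70 and that of Cd274 between 0.36 and 0.71. The sample that moved Cd80 most was Nontreated replicate 1. Without it the difference was 1.79 in CRT, 2.34 in SRT and 2.64 in SRT-like, whereas without Nontreated replicate 2 these were 0.93, 1.48 and 1.78 in the same order.

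**Figure D5:**
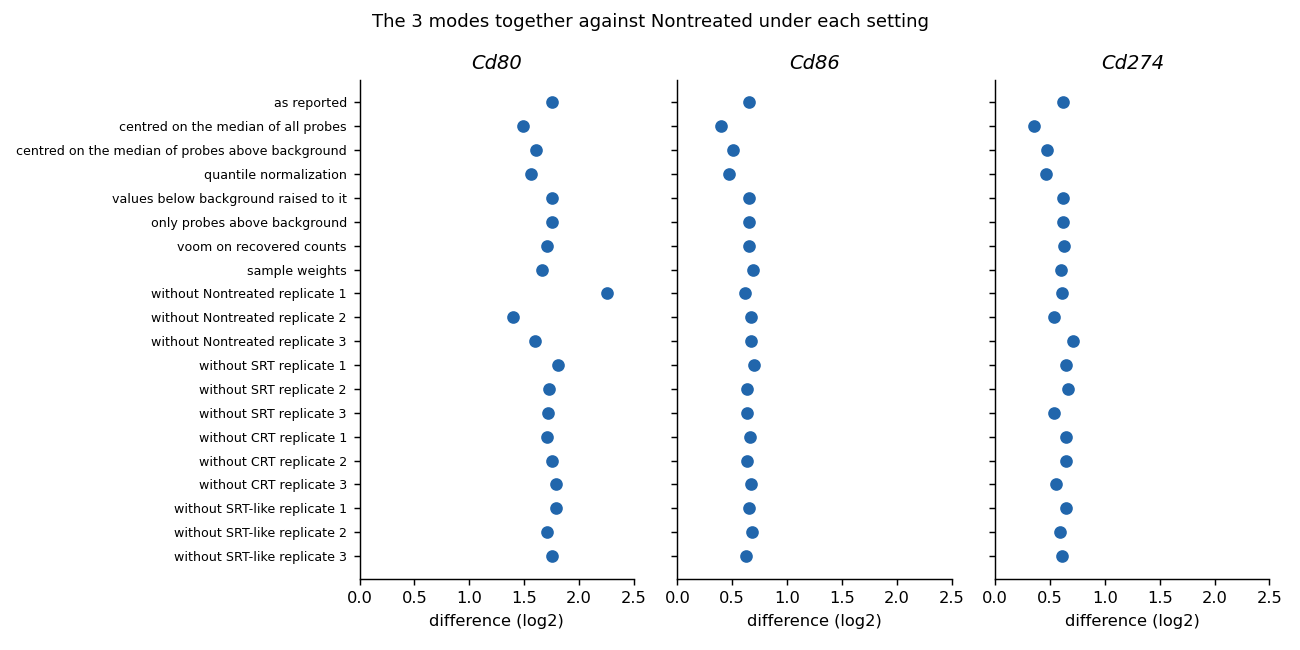
Log2 difference of the 3 modes together from Nontreated for Cd80, Cd86 and Cd274 as reported and under 19 other settings, each on its own line. The Cd80 points spread from 1.40 to 2.25, and both ends come from leaving out a Nontreated sample.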

How the data were processed

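RNA of sorted CD8+ T cells was counted in 12 samples on a NanoString panel. The deposited log2 values were normalized by the authors in ROSALIND, per the labels; the genes used for scaling and any background step are not stated in these sources. For every sample, 100% of the values were whole multiples of 1 step (tolerance 0.01 molecules), from which the counts were recovered.

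The 773 probes of all 12 samples were fitted in limma 3.58.1 (R 4.3.3; lmFit, eBayes without trend) with 4 group means. There were 7 contrasts, each 2-sided, and p-values were adjusted over all 773 probes by Benjamini-Hochberg and called below 0.05. The fit was tested on simulated data. The members and lists were chosen with earlier results of these data known. The rule for naming took the 6 members, every gene of a pathway or marker list past the threshold against Nontreated, or otherwise the 2 with the smallest p for the modes together, and 3 most like probes per member; some genes that the rule names are not reported here. Of the 773 probes, 495 were above background in every sample of at least 1 group. Alternatives were 2 centrings, quantile normalization, a floor at background, a filter on low probes, voom, sample weights, fits of 2 groups only and leaving out each sample. Scores, set tests and protein sequences were left out.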

Additional observations from a re-analysis of the deposited data

How the results depend on the processing

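The number of genes of the panel past the threshold was, as reported, 24 for the modes together, 24 in CRT, 5 in SRT-like and 0 in SRT. Centring on the median of all probes gave 11, 12 and 0 for the first 3, and centring on the median of probes above background, chosen after seeing the data, gave 15 for the modes together and 0 in SRT-like. Quantile normalization gave 2 for the modes together, 13 in CRT (11 higher and 2 lower, against 23 and 1 as reported) and 0 in SRT-like. A floor at background gave 0 in SRT-like. With only probes above background tested there were 9 calls in SRT-like and 3 in SRT, and voom gave 15 and 2. Sample weights, which gave Nontreated replicate 3 a weight of 0.27, gave 64, 62 and 15 for the modes together, CRT and SRT-like. Fits of only the 2 groups compared, with fewer samples to estimate the spread, gave 0 in CRT and 0 in SRT-like. That setting does not exist for the modes together. Leaving out each sample in turn gave 2 to 77 calls for the modes together, 0 to 58 in CRT, 0 to 9 in SRT-like, 0 to 1 in SRT and 0 to 1 for SRT-like against CRT. Both 77 and 58 came without Nontreated replicate 3, the shallowest sample, and CRT had 0 calls without CRT replicate 2. The modes together had 2 without CRT replicate 2 or without SRT-like replicate 2. The cause of these shifts, depth included, was not tested. No paired analysis was possible because the groups share no sample numbers in the labels. Depth limited Cd80 most, with 29 molecules in Nontreated replicate 3.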
